A study of Mus musculus with 6 samples.

Results

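Chemokines are small secreted proteins that direct the movement of leukocytes, and their receptors are G protein-coupled receptors on the cells that move. The genes were taken by symbol: the Ccl, Cxcl, Cx3cl and Xcl ligands, the Ccr, Cxcr, Cx3cr and Xcr receptors and the atypical Ackr receptors. Symbols with -ps, which marks pseudogenes, and Ccl28 were left out. This gave 63 of 55363 symbols, namely 39 ligands, 19 receptors and 5 atypical receptors, Ccrl2 included. They were measured by RNA-seq in whole oviducts of female mice aged 6 to 8 weeks, mated with fertile males and killed on gestational day 3, counting the day of the vaginal plug as the first. The 3 libraries labelled Mettl3 d/d were compared with 3 libraries labelled Mettl3 f/f. Mettl3 encodes the catalytic subunit of the writer of N6-methyladenosine on RNA. By the usual notation d/d is the deleted allele and f/f the allele flanked by loxP sites, while neither the Cre driver nor the deleted exons is given in the sources used here.

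In the chemokine system, inflammatory ligands such as Ccl2 are induced in tissue cells and macrophages and recruit monocytes, neutrophils or T cells, while homeostatic ligands such as Cxcl12 are made by stroma at rest and hold cells in place. Conventional receptors signal through inhibitory G proteins. Atypical receptors bind ligands without that signal and take them up or carry them across endothelium. In the female tract these molecules are known for placing macrophages, T cells and other leukocytes in the mucosa.

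The values carry no named unit and were read as FPKM. In FPKM, fragment numbers are scaled by transcript length and by library depth, so levels of different genes can be set side by side. The steps of the lowest values implied 16700000 to 17300000 fragments in libraries labelled d/d and 17200000 to 17800000 in libraries labelled f/f. Mettl3 itself was at 19.8, 20.3 and 24.5 FPKM in libraries labelled d/d, against 11.8, 12.1 and 13.2 in libraries labelled f/f, with a log2 change of 0.75 (limma adjusted p = 0.0145). Its level thus goes against the deletion label, a sum over the gene cannot show exons lost, and every direction below rests on the labels. Oviduct identity was present in every library: Ovgp1, the oviductal glycoprotein, was at 4329, 2651 and 5059 FPKM in libraries labelled d/d and 5690, 4264 and 5025 in libraries labelled f/f. Hoxa10, which is expressed toward the uterus, was at 4.24, 9.47 and 12.4 FPKM in libraries labelled d/d and 3.48, 26.5 and 25.1 in libraries labelled f/f, and replicate 1 was the lowest in each group. Mitochondrial genes held 6.50%, 6.76% and 9.70% of summed FPKM in libraries labelled d/d and 4.47%, 5.70% and 3.61% in libraries labelled f/f, without overlap, and the part of RNA quality in the results was not tested.

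Of the 63 genes, 34 had a mean of at least 1 FPKM and were tested with limma on log2(FPKM + 1) together with all 15438 features at that level, and called at a p under 0.05 after Benjamini-Hochberg adjustment. In libraries labelled d/d 7 of the 34 rose (Cxcl17, Ccl8, Ccl12, Ccl7, Ccl2, Cxcl16 and Ccl9) and 1 fell (Cxcl12). Over all features tested, 6.04% rose and 4.97% fell. All 8 called genes were ligands, of 23 ligands tested, and 0 of 7 receptors and 0 of 4 atypical receptors passed. Counts of 0 among so few genes lie close to the shares over all features. At an unadjusted p under 0.05 were 4 receptors and 2 atypical receptors, beside 4562 of 15438 features in either direction. In simulated data the fit called 49.4% of genes changed by a log2 of 1 and 7.4% of those changed by 0.5. The 3 values labelled d/d lay above all 3 labelled f/f for 16 of the 34 genes and below them for 2, against 18.1% and 17.4% of all features. The median log2 change was 0.90 over the 34 genes and -0.01 over all features. The count of genes that rose was 4 without d/d replicate 2 or f/f replicate 2, and the fall of Cxcl12 was not called without d/d replicate 3, f/f replicate 2 or f/f replicate 3. No setting tried moved the median of all features by more than 0.02 on the log2 scale.

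**Figure D1:**
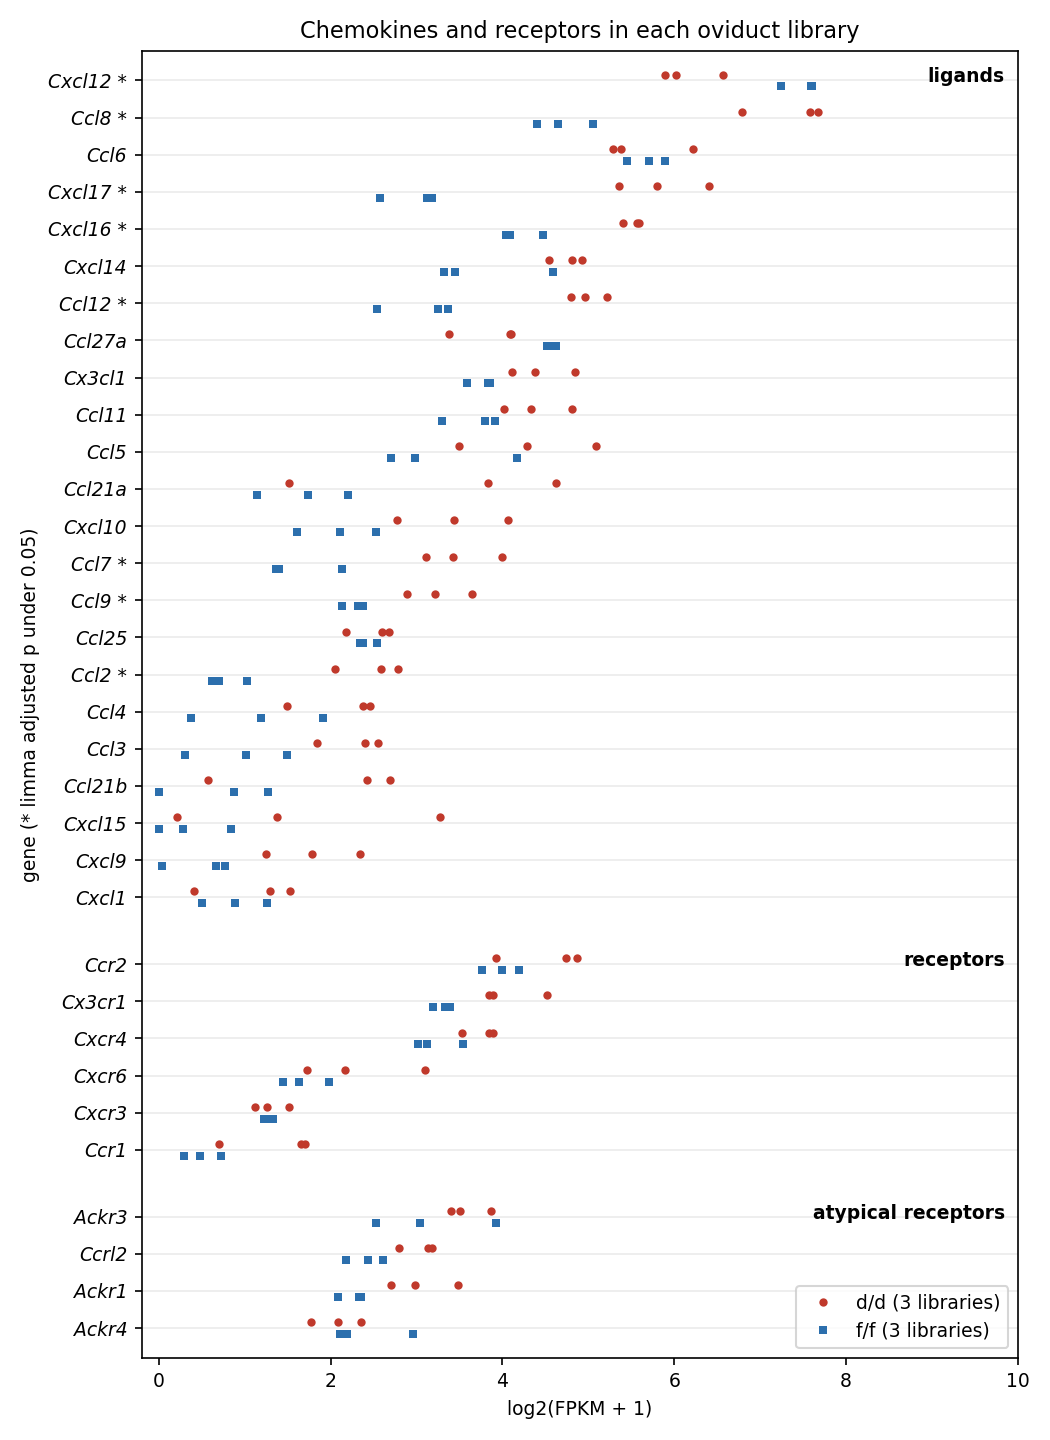
Level of 33 of the 34 tested chemokine and receptor genes as log2(FPKM + 1), 1 point per library, with libraries labelled d/d as circles above and libraries labelled f/f as squares below; an asterisk marks genes past the threshold. For Cxcl17, Ccl8, Ccl12, Ccl7, Ccl2, Cxcl16 and Ccl9 all circles lie to the right of all squares, and for Cxcl12 all lie to the left.

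The monocyte chemoattractant genes rose together. Ccl8, a CC ligand of the monocyte chemoattractant family, was at 203, 190.0 and 109 FPKM in libraries labelled d/d and 32.2, 20.1 and 24.1 in libraries labelled f/f. The lowest library labelled d/d was more than 3 times the highest labelled f/f, and the means were 167 ± 50.8 and 25.5 ± 6.19 FPKM (SD, n = 3 each). Ccl8 thus rose 6.57-fold (log2 change 2.64, SE 0.27, limma adjusted p = 0.00539). Ccl8 has 1 annotated transcript, and its FPKM stood for about 864, 781 and 454 fragments in libraries labelled d/d and 141, 88.0 and 102 in libraries labelled f/f.

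Ccl12, a ligand of Ccr2 in the mouse, was at 30.05, 36.1 and 26.7 FPKM in libraries labelled d/d against 9.33, 4.799 and 8.48 in libraries labelled f/f. It rose 4.11-fold (log2 change 1.94, SE 0.24, limma adjusted p = 0.00878), with little spread among the libraries labelled d/d. Ccl7, another Ccr2 ligand, was at 15.0, 9.69 and 7.62 FPKM in libraries labelled d/d against 3.39, 1.58 and 1.64 in libraries labelled f/f. In both groups replicate 1 held the highest Ccl7 value, and the rise was 4.88-fold (log2 change 1.87, SE 0.30, limma adjusted p = 0.0147). Ccl2, the main attractant of Ccr2-bearing monocytes, was low in all libraries, at 5.89, 5.01 and 3.14 FPKM in libraries labelled d/d and 0.622, 1.03 and 0.535 in libraries labelled f/f. Its 6.41-fold rise (log2 change 1.69, SE 0.25, limma adjusted p = 0.0128) rested on about 6.3 to 12.6 fragments per library labelled f/f, by the median length of its annotated transcripts. Leaving out 1 library gave limma adjusted p from 0.0239 to 0.0516 for Ccl2, whose call was lost without d/d replicate 2 (0.0516) or f/f replicate 2 (0.0512). For Ccl7 the range was 0.0132 to 0.0704, and the call was lost without d/d replicate 2 (0.0561), f/f replicate 2 (0.0704) or f/f replicate 3 (0.0594). Ccl8 and Ccl12 kept the call without any single library (highest adjusted p 0.0392 and 0.0399).

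These genes are neighbours. In GENCODE release M21 (GRCm38) Ccl2 (ENSMUSG00000035385; chromosome 11, 82035571 to 82037453), Ccl7 (82045712 to 82047525), Ccl11 (82057823 to 82062955), Ccl12 (82101845 to 82103400) and Ccl8 (ENSMUSG00000009185; 82115185 to 82116799) lie on the plus strand in that order within 81.2 kb. Ccl11, an eotaxin that attracts eosinophils through Ccr3, was at 15.2, 19.1 and 27.1 FPKM in libraries labelled d/d and 8.84, 12.9 and 14.0 in libraries labelled f/f. The groups did not overlap, but the gene missed the threshold (log2 change 0.72 with a 95% interval of 0.13 to 1.30; limma adjusted p = 0.109). Ccl1, the next chemokine gene on the minus strand, was listed at 0 in d/d replicate 1 and at 2.63 and 0.477 FPKM in d/d replicates 2 and 3, and was listed at 0 in all libraries labelled f/f. Of the 5 other protein-coding genes tested within 500 kb of the stretch from Ccl2 to Ccl1, 0 rose and 0 fell by limma (2 at an unadjusted p under 0.05), with a median log2 change of 0.34.

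**Figure D2:**
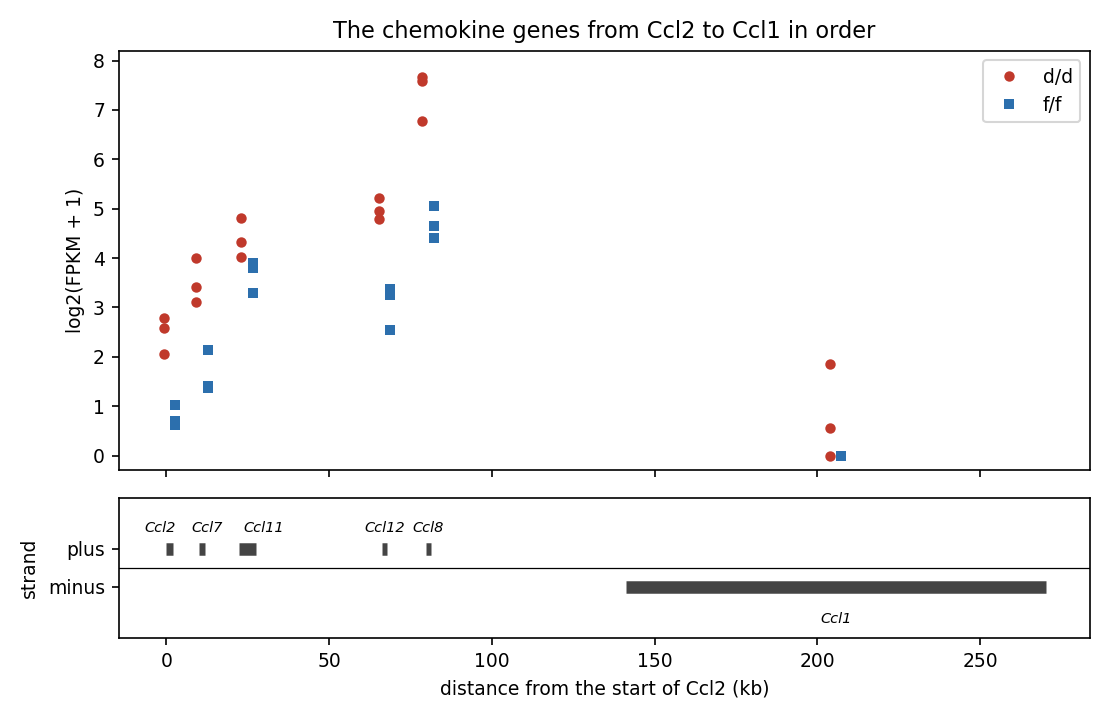
The upper panel gives log2(FPKM + 1) of the 6 chemokine genes from Ccl2 to Ccl1 in each library (circles, labelled d/d; squares, labelled f/f), at the gene's distance in kb from the start of Ccl2; the lower panel draws each gene to scale by strand. From Ccl2 to Ccl8 the circles lie above the squares at every gene, and Ccl1 is listed at 0 in the 3 libraries labelled f/f.

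The starts of the called ligands are shown because neighbouring genes moved together and because Cxcl12 moved the other way. RefSeq promoters (GRCm38.p6) were matched for 26 of the 34 tested genes and 4 of the 8 called ones; the promoters of Ccl2, Ccl7, Cxcl16 and Cxcl17 had no entry. Each line gives the 250 bases before the start, 5′ to 3′ along the gene's strand. Capitals mark the letters TATAAA, or their reverse complement, and, in Ccl9, the NF-kB consensus site 35 bases before the start; both strands were searched. Ccl12 lies at chr11:82101595-82101844 (plus), Ccl8 at chr11:82114935-82115184 (plus), Ccl9 at chr11:83578637-83578886 (minus) and Cxcl12 at chr6:117168285-117168534 (plus).
Ccl12: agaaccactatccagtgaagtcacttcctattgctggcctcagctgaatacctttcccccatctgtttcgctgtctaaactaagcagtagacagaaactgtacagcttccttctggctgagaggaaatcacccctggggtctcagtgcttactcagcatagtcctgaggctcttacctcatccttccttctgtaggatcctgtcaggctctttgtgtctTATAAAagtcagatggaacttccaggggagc
Ccl8: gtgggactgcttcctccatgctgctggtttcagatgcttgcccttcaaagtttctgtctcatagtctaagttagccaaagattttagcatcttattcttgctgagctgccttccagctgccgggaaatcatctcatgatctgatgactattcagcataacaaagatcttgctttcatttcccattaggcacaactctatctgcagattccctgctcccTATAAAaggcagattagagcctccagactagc
Ccl9: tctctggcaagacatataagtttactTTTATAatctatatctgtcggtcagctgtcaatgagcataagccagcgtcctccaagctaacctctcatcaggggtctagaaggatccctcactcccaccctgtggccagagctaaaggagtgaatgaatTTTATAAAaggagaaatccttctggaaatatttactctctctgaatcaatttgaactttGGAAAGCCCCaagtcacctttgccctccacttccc
Cxcl12: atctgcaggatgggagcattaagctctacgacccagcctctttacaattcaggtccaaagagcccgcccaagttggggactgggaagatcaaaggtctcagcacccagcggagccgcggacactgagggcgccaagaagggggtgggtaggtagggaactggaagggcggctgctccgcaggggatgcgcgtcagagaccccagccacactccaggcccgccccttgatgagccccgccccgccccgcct
TATAAA began 31 bases before the start of Ccl12 and 32 before that of Ccl8, was found in Ccl9 at 224, 94 and 92 bases (the last 2 overlap, on opposite strands), and was not in the window of Cxcl12. It was present in 12.4% of all 32851 promoter windows and in 10 of the 26 matched genes. The 26 genes had 31 windows, and a gene counted if any of its windows held a match. Counts of genes and shares of windows are therefore not in like units, here and for the other motifs. The NF-kB consensus was present in 7.25% of windows and in 5 of the 26 genes (Ccl9, Cxcl1, Cxcl10, Ccrl2 and Ccr1), and the gamma-activated sequence TTCNNNGAA in 7.02% and in 1 gene, Cxcl14. A match is a description of letters and not a bound site.

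Cxcl17 (chromosome 7, 25400053 to 25412886, minus strand), a mucosal chemokine made by epithelium, had the largest log2 change of the 34 genes. It was at 54.6, 84.1 and 39.8 FPKM in libraries labelled d/d and 4.94, 8.09 and 7.71 in libraries labelled f/f, and rose 8.61-fold (log2 change 2.89, SE 0.29, limma adjusted p = 0.00523). The lowest library labelled d/d was about 5 times the highest labelled f/f. Cxcl16 (chromosome 11, 70453983 to 70459984, minus strand), a transmembrane ligand of Cxcr6 that myeloid cells and epithelia present, was at 46.4, 47.2 and 41.3 FPKM in libraries labelled d/d and 21.2, 15.96 and 15.4 in libraries labelled f/f. It had the smallest SE of the called genes and rose 2.56-fold (log2 change 1.32, SE 0.14, limma adjusted p = 0.00639). Its exons overlap those of Zmynd15 on the other strand, which averaged 4.14 FPKM in libraries labelled d/d and 2.28 in libraries labelled f/f and did not pass (limma adjusted p = 0.146). Cxcl17 and Cxcl16 kept the call without any single library (highest adjusted p 0.0347 and 0.0444). Among 9 tested markers of the secretory epithelium 5 rose (Epcam, Cdh1, Muc1, Ltf and Lcn2) and 1 fell (Krt18), with sums of 5943 to 8344 FPKM in libraries labelled d/d and 5438 to 6672 in libraries labelled f/f, and their part in the Cxcl17 level was not tested. The receptor Cxcr6, found on T cells and NK cells, was at 3.47, 7.56 and 2.32 FPKM in libraries labelled d/d and 2.10, 2.96 and 1.71 in libraries labelled f/f, with overlapping groups (log2 change 0.64, 95% interval from -0.22 to 1.51).

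Cxcl12 (chromosome 6, 117168535 to 117181367, plus strand), the stromal ligand of Cxcr4 and Ackr3, was the only tested chemokine gene that fell. It was at 94.0, 58.3 and 63.9 FPKM in libraries labelled d/d against 151, 192 and 193 in libraries labelled f/f, and was 2.48-fold lower (log2 change -1.32, SE 0.20, limma adjusted p = 0.0135), with means of 72.1 ± 19.2 and 179 ± 23.9 FPKM (SD, n = 3 each). The groups were well apart, and leaving out 1 library gave log2 changes from -1.53 to -1.19 with adjusted p from 0.0141 to 0.0640. Of 9 tested stromal markers 1 rose (Lum) and 1 fell (Pdgfra), with overlapping sums of 3095 to 4490 FPKM in libraries labelled d/d and 3399 to 3717 in libraries labelled f/f. The receptor Cxcr4 was at 13.4, 13.8 and 10.6 FPKM in libraries labelled d/d and 10.6, 7.69 and 7.07 in libraries labelled f/f, and the groups just overlapped (log2 change 0.53 with a 95% interval of 0.10 to 0.96; limma adjusted p = 0.107; 0.0458 without f/f replicate 1, in a range of 0.0458 to 0.272 over its alternatives). Ackr3, which takes up Cxcl12, was at 9.52, 10.4 and 13.6 FPKM in libraries labelled d/d and 14.2, 4.76 and 7.19 in libraries labelled f/f, and the f/f libraries spanned the d/d ones.

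The most abundant ligand was Ccl8 in each library labelled d/d and Cxcl12 in each labelled f/f. Summed over the 39 ligands, the level was 699, 652 and 464 FPKM in libraries labelled d/d and 376, 385 and 388 in libraries labelled f/f. Without Cxcl12 the sums were 605, 594 and 400 FPKM in libraries labelled d/d and 225, 193 and 195 in libraries labelled f/f. Cxcl12 held 13.5%, 8.94% and 13.8% of the sum in libraries labelled d/d and 40.1%, 49.8% and 49.7% in libraries labelled f/f, where Ccl6 came second in each. Ccl8 held 29.0%, 29.1% and 23.5% of the sum in libraries labelled d/d, against 8.57%, 5.22% and 6.20% in libraries labelled f/f. These shares describe the libraries and carry no test.

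Ligands that draw monocytes, macrophages and T cells lie in a second group on chromosome 11. Ccl9, a mouse ligand of Ccr1 (chromosome 11, 83572919 to 83578636, minus strand), was at 11.5, 8.29 and 6.38 FPKM in libraries labelled d/d and 3.98, 4.19 and 3.37 in libraries labelled f/f. It rose 2.27-fold (log2 change 0.97, SE 0.21, limma adjusted p = 0.0347), and of the 6 fits that left out 1 library only that without d/d replicate 3 kept the call (adjusted p from 0.0475 to 0.108). Ccl6, its neighbour and the most abundant of this group, was at 73.2, 40.7 and 38.1 FPKM in libraries labelled d/d and 42.8, 58.4 and 51.3 in libraries labelled f/f. The f/f values lay within the d/d range, and the 95% interval of the log2 change ran from -0.67 to 0.56. Ccl3 was at 2.57, 4.29 and 4.84 FPKM in libraries labelled d/d and 1.02, 1.801 and 0.234 in libraries labelled f/f, without overlap (log2 change 1.33, limma adjusted p = 0.0582; 0.0443 with quantile normalization, in a range of 0.0443 to 0.162 over its alternatives). Ccl4 was at 4.17, 1.81 and 4.5 FPKM in libraries labelled d/d and 2.75, 1.29 and 0.298 in libraries labelled f/f. Ccl5, which T and NK cells also make, was at 18.5, 33.0 and 10.2 FPKM in libraries labelled d/d and 17.0, 5.53 and 6.87 in libraries labelled f/f. Both genes overlapped between groups, and f/f replicate 1 was the highest of its group for each.

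The interferon-induced ligands of Cxcr3, which attract activated T cells, missed the threshold. Cxcl10 was at 15.8, 9.79 and 5.82 FPKM in libraries labelled d/d and 4.76, 3.32 and 2.05 in libraries labelled f/f (log2 change 1.34, SE 0.37, limma adjusted p = 0.0644). Its exons overlap those of Art3 on the other strand, which averaged 12.2 FPKM, more than Cxcl10 itself. Cxcl9 was at 1.36, 4.06 and 2.45 FPKM in libraries labelled d/d and 0.704, 0.0214 and 0.579 in libraries labelled f/f (log2 change 1.30, SE 0.36, limma adjusted p = 0.0631; 0.0466 with quantile normalization, in a range of 0.0466 to 0.171 over its alternatives). The groups overlapped for neither gene. Cxcl11, kept by its symbol but annotated in GENCODE M21 as a polymorphic pseudogene, was above 0 in d/d replicate 3 alone (0.134 FPKM). Cxcr3 was at 1.86, 1.39 and 1.17 FPKM in libraries labelled d/d and 1.34, 1.45 and 1.51 in libraries labelled f/f, with a 95% interval of the log2 change from -0.48 to 0.50.

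Of the 7 tested receptors, which mark the cells that respond, none passed the threshold by limma, which is close to the share over all features. All 7 had a positive log2 change. Cx3cr1, a receptor of tissue macrophages and monocytes, was at 13.9, 21.9 and 13.3 FPKM in libraries labelled d/d and 9.50, 9.05 and 8.14 in libraries labelled f/f (log2 change 0.78, SE 0.20, limma adjusted p = 0.0518). The groups of Cx3cr1 did not overlap. With a pseudocount of 0.1, quantile normalization or TMM scaling it passed, and over all its alternatives the limma adjusted p ranged from 0.0478 to 0.149. The ligand of Cx3cr1, the membrane-bound Cx3cl1, was at 27.8, 19.9 and 16.3 FPKM in libraries labelled d/d and 13.3, 13.5 and 11.01 in libraries labelled f/f (log2 change 0.69, limma adjusted p = 0.0725). Ccr2, the receptor of Ccl2, Ccl7 and Ccl12, was the most abundant receptor, at 25.7, 28.3 and 14.2 FPKM in libraries labelled d/d and 14.9, 17.3 and 12.5 in libraries labelled f/f. Here d/d replicate 3 lay within the f/f range, and the 95% interval of the log2 change ran from -0.09 to 1.15. Ccr1 was at 2.14, 2.24 and 0.621 FPKM in libraries labelled d/d and 0.654, 0.393 and 0.227 in libraries labelled f/f, again with d/d replicate 3 in the f/f range. That library was the lowest of the 3 labelled d/d for all 7 tested receptors and for 21 of the 34 genes, against 30.9% of all features.

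**Figure D3:**
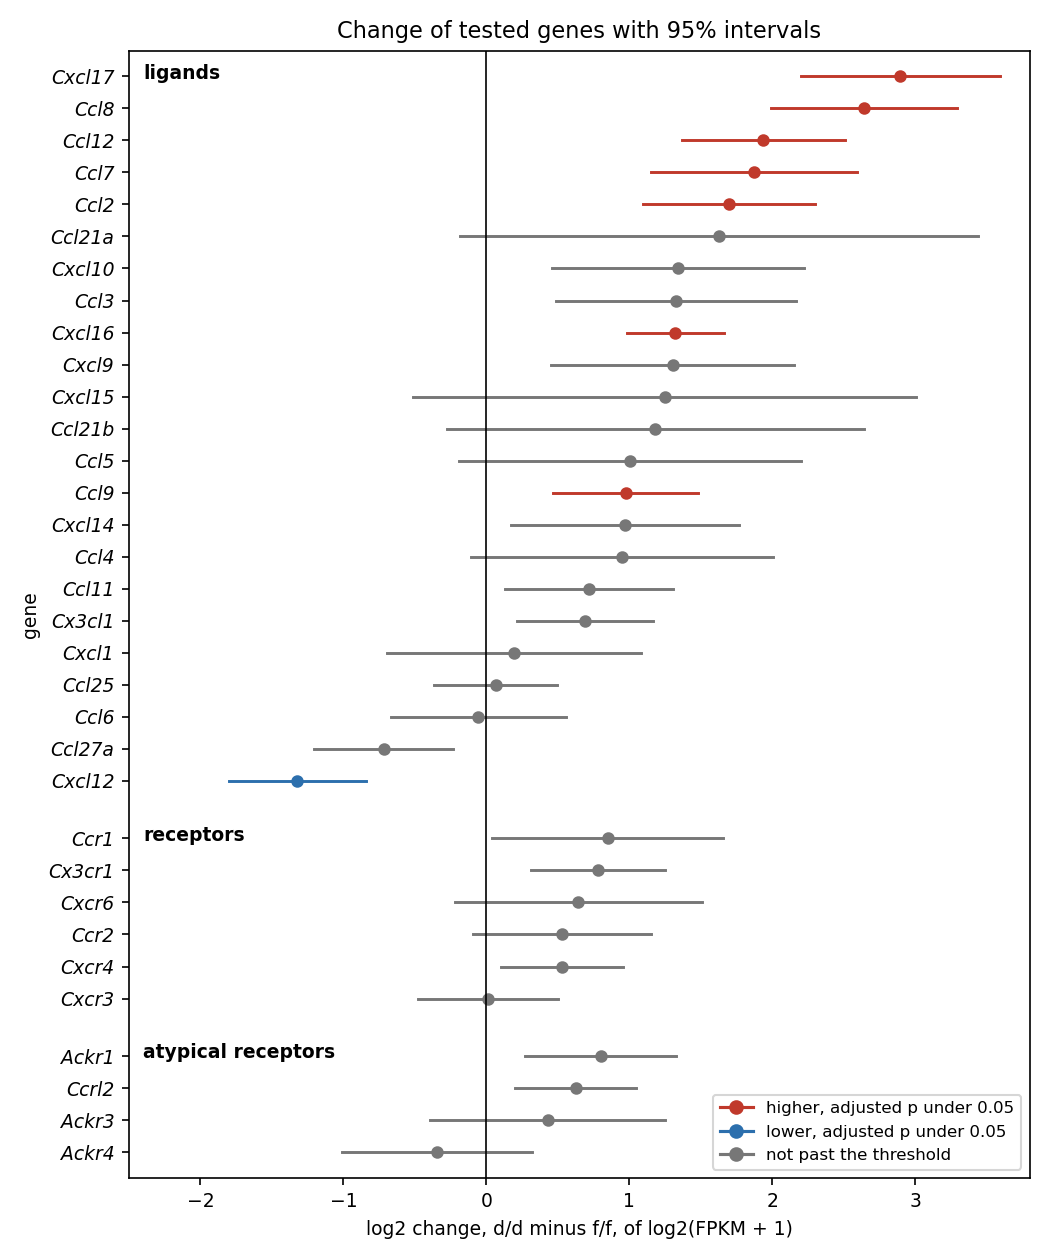
Log2 change (d/d minus f/f, of log2(FPKM + 1)) of 33 of the 34 tested genes with its 95% interval from limma, by ligand, receptor and atypical receptor. The 7 genes that rose and Cxcl12, which fell, are all ligands, while the receptors are few and their lack of calls lies close to the share over all features. Several genes have intervals above 0 without passing the adjusted threshold, among them Cx3cr1, Ccr1, Cxcr4, Ackr1, Ccl3 and Cxcl10.

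Most of the macrophage markers listed moved with these genes. Of 15 macrophage and monocyte markers, all of them tested, 11 rose and 0 fell by limma. At an unadjusted p under 0.05, 13 were higher and 2 lower, and the median log2 change over all 15 was 1.32. Folds of the 11 that passed ran from 1.74 to 3.79 with a median of 2.81, and this range leaves out the markers that did not pass. The summed level of all 15 was 1073 to 1435 FPKM in libraries labelled d/d and 407 to 505 in libraries labelled f/f. None was at 0 throughout. Ccl8, Ccl2, Ccl7 and Ccl12 had larger folds (4.11 to 6.57) than any of the 11 markers that passed. Cxcl16 and Ccl9 had folds within the range of those 11, and Ccr2 and Cx3cr1 folds of 1.52 and 1.84. In whole tissue a larger number of cells of a type and more RNA per cell cannot be told apart, and the part of macrophages in the chemokine levels was not tested. Of 7 tested B and plasma cell markers 2 rose (Cd79b and Igha), summing to 609 to 1121 FPKM in libraries labelled d/d and 229 to 342 in libraries labelled f/f. Of 9 tested T and NK cell markers 0 rose and 0 fell by limma (2 higher and 0 lower at an unadjusted p under 0.05). That list summed to 77.0 to 108 FPKM in libraries labelled d/d and 81.2 to 215 in libraries labelled f/f. Of 8 tested neutrophil markers 1 rose (Csf3r) and 0 fell by limma (1 higher and 1 lower at an unadjusted p under 0.05). The neutrophil list summed to 33.8 to 101 FPKM in libraries labelled d/d and 7.39 to 117 in libraries labelled f/f, with Mpo and Elane listed at 0 in all 6 libraries. Of 5 tested lymphatic markers, Ccl21a among them, 1 fell (Lyve1, 2.13-fold lower). The other 4 had positive log2 changes without passing, for a median of 0.44 over the 5. Of 10 tested blood endothelial markers 2 rose (Vwf and Selp), and among 6 tested dendritic cell markers Cd209a fell. Of 7 tested smooth muscle markers Des fell. The markers of multiciliated cells (8 tested), ovary (4), oocyte and embryo (1), eosinophils and mast cells (1) and the uterine end (1) gave 0 calls by limma and 0 at an unadjusted p under 0.05.

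Ligands of lymphatic vessels and of skin and gut homing were low or split among copies. Ccl21a, the lymphatic ligand of Ccr7, was at 23.5, 13.2 and 1.86 FPKM in libraries labelled d/d and 2.34, 1.21 and 3.58 in libraries labelled f/f. It was high in d/d replicates 1 and 2 only (log2 change 1.63 with a 95% interval of -0.18 to 3.44; limma adjusted p = 0.209, and 0.0423 without d/d replicate 3, in a range of 0.0423 to 0.486 over its alternatives). Ccl21b was at 5.48, 4.37 and 0.491 FPKM in libraries labelled d/d and at 0, 0.838 and 1.41 in libraries labelled f/f, with the same order among libraries labelled d/d. The list of lymphatic endothelial markers includes Ccl21a itself, so its sum is no separate measure beside Ccl21a. That sum was 19.2 to 62.6 FPKM in libraries labelled d/d and 25.8 to 35.9 in libraries labelled f/f. Pdpn was listed at 0 in all 6 libraries, and a listed 0 does not by itself show that a transcript was absent. The Ccl21 and Ccl27 genes have near-identical copies between which reads can be split, so these levels are uncertain. Ccl27a, a ligand of Ccr10, was at 16.1, 9.43 and 16.02 FPKM in libraries labelled d/d and 23.0, 21.9 and 23.6 in libraries labelled f/f (log2 change -0.72 with a 95% interval of -1.20 to -0.23; limma adjusted p = 0.0696), and its exons overlap those of the more abundant Il11ra1 (82.3 FPKM) on the other strand. Its receptor Ccr10 was under the filter, at 0.317, 0.328 and 0.283 FPKM in libraries labelled d/d and 0.692, 1.15 and 1.12 in libraries labelled f/f, so that for receptor and ligand alike the 3 d/d values lay below the 3 f/f values. Ccl25, a gut-homing ligand of Ccr9, was at 5.07, 3.51 and 5.43 FPKM in libraries labelled d/d and 4.07, 4.21 and 4.81 in libraries labelled f/f, and its exons overlap those of Elavl1 (40.7 FPKM).

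Cxcl14, a ligand of epithelia and stroma, was at 22.3, 29.3 and 27.0 FPKM in libraries labelled d/d and 23.1, 8.98 and 9.89 in libraries labelled f/f. The f/f libraries differed among themselves, and without f/f replicate 1 the gene passed (log2 change 1.38, limma adjusted p = 0.00851, in a range of 0.00851 to 0.286 over its alternatives). Ligands of Cxcr2, which attract neutrophils, were near the floor of detection: Cxcl1 was at 1.89, 1.44 and 0.325 FPKM in libraries labelled d/d and 0.411, 1.39 and 0.851 in libraries labelled f/f, and Cxcl5, Cxcl2 and Cxcl3 did not exceed 1.60 FPKM in any library. Cxcl15, first known from lung, was at 0.155, 8.68 and 1.59 FPKM in libraries labelled d/d and 0.783, 0.211 and 0 in libraries labelled f/f, and d/d replicate 2 alone stood above the rest. Cxcr2 was likewise highest in d/d replicate 2 (1.49 FPKM).

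Among atypical receptors, Ackr1, which carries chemokines across venules, was at 10.1, 5.48 and 6.93 FPKM in libraries labelled d/d and 3.24, 4.01 and 4.11 in libraries labelled f/f (log2 change 0.80, SE 0.22, limma adjusted p = 0.0648). Its exons overlap those of Cadm3 on the same strand (2.77 FPKM). Ccrl2, which binds chemerin rather than chemokines, was at 5.94, 7.74 and 8.08 FPKM in libraries labelled d/d and 5.12, 4.42 and 3.54 in libraries labelled f/f (log2 change 0.62, limma adjusted p = 0.0700; 0.0497 with quantile normalization, in a range of 0.0497 to 0.184 over its alternatives). The groups of these 2 genes did not overlap. Ackr4, which removes Ccl19, Ccl21 and Ccl25, was at 2.40, 4.12 and 3.26 FPKM in libraries labelled d/d and 6.74, 3.56 and 3.31 in libraries labelled f/f, and the highest value was that of f/f replicate 1, and its exons overlap those of Acad11 on the other strand (14.8 FPKM). Ackr2, which scavenges inflammatory CC ligands, was under the filter at 1.81, 0.876 and 0.215 FPKM in libraries labelled d/d and 0.122, 0.303 and 0.275 in libraries labelled f/f.

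The other 29 genes were under the filter, and 15 of them reached 0.5 FPKM in at least 1 library: Ccl1, Ccl17, Ccl20, Ccl22, Ccl24, Cxcl13, Cxcl2, Cxcl5, Xcl1, Ccr10, Ccr3, Ccr7, Cxcr2, Xcr1 and Ackr2. Ccl17 and Ccl22, ligands of Ccr4 that dendritic cells make, were at 1.19 to 1.67 and 0.515 to 0.675 FPKM in libraries labelled d/d, against 0 to 0.714 and 0.144 to 0.259 in libraries labelled f/f. In both the groups did not overlap, at about 5 to 7 fragments per library labelled d/d for Ccl17, while Ccr4 stayed at or under 0.182 FPKM. With no filter on low values Ccl22 passed the threshold. Cxcl13, which draws B cells through Cxcr5, was at 1.12, 1.35 and 0.534 FPKM in libraries labelled d/d and 2.55, 0.0635 and 0.132 in libraries labelled f/f, where replicate 1 stood far above the others. Ccl20, the epithelial ligand of Ccr6, was at 0.693, 0.911 and 0 FPKM in libraries labelled d/d and 0.224, 0 and 0 in libraries labelled f/f. Cxcl5 was at 0.807, 1.60 and 0.0902 FPKM in libraries labelled d/d and 0.0429, 0.428 and 0.491 in libraries labelled f/f. The groups of these genes overlapped. Ccr7, the receptor of Ccl19 and Ccl21 on T cells and dendritic cells, was at 0.776, 0.315 and 0.0689 FPKM in libraries labelled d/d and 0.491, 0.393 and 0.0681 in libraries labelled f/f, lowest in replicate 3 of each group. Xcl1, a ligand of T and NK cells, was at 0.231, 0.461 and 0.460 FPKM in libraries labelled d/d and 0.224, 0.220 and 1.38 in libraries labelled f/f, and its dendritic cell receptor Xcr1 at 0.151, 0.729 and 0.282 FPKM in libraries labelled d/d and 0.708, 0.428 and 0.195 in libraries labelled f/f. In both, the spread within a group exceeded any difference between groups. Ccl19, Ccl21d, Ccl26 and Ccl27b were listed at 0 in all 6 libraries, and the remaining 10 stayed above 0 in at least 1 library and under 0.5 FPKM in each.

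Genes that work with the chemokines moved in part, beside 6.04% of all features that rose and 4.97% that fell. Among 46 tested genes of receptor signalling and cell movement, 7 rose, among them Rgs10, Vav1, Arrb2, Vav3, Lyn and Fermt3, and 1 fell (Gng2). At an unadjusted p under 0.05, 14 were higher and 4 lower, beside 4562 of 15438 features in either direction. Rgs10, a brake on G protein signalling abundant in myeloid cells, rose 2.76-fold and the Rac activator Vav1 2.43-fold. Of 20 tested genes of the NF-kB and cytokine route that induces many chemokines, 4 rose and 0 fell by limma. The 4 were Tlr2 at 2.03-fold, Bcl3 at 1.87-fold, Relb at 1.67-fold and Rela. At an unadjusted p under 0.05, 8 were higher and 1, Myd88, was lower. Myd88 was at 36.1, 27.1 and 29.3 FPKM in libraries labelled d/d and 37.1, 138 and 138 in libraries labelled f/f (limma adjusted p = 0.0968). Tnf, Il1a, Il6 and Il17a were under the filter. Il6 was at 0, 0.302 and 0 FPKM in libraries labelled d/d and 0.644, 2.24 and 2.18 in libraries labelled f/f. Il17a went the other way, at 0.705, 0.396 and 0.261 FPKM in libraries labelled d/d and 0 in those labelled f/f. Of 13 tested genes of the interferon gamma route 1 rose, Ifngr1 (1.73-fold), and 0 fell by limma. At an unadjusted p under 0.05, 2 were higher and 0 lower. The count that rose by limma lay close to the share over all features. Of 16 tested genes that trim chemokines or bind them in the matrix 6 rose and 0 fell by limma. At an unadjusted p under 0.05, 9 were higher and 1 lower. Among the 6 were the metalloproteinase genes Mmp12 (19.1-fold, with f/f libraries at 0.0133 to 0.198 FPKM) and Mmp2 (2.95-fold) and the syndecan Sdc3 (1.95-fold). Of 9 tested relatives with chemotactic roles 3 rose (Gpr182 at 3.11-fold, Mif at 2.27-fold and Cmtm7) and 1 fell: Rarres2, the chemerin that Ccrl2 binds, which was 2.39-fold lower. The median log2 change was 0.08 for the signalling genes, 0.37 for the NF-kB route, 0.46 for the interferon gamma route, 0.32 for the trimming genes and 0.40 for the relatives, beside -0.01 over all features.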

How the data were processed

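Oviduct RNA was extracted with TRIzol and sequenced with a TruSeq RNA kit, per the labels' protocols. HISAT2 2.2.1 and Cufflinks 2.2.1 and the builds mm9 and mm10 are named, per the submitters' processing notes, without their roles, and neither annotation nor strand setting is given in the sources used here. The deposited tables hold 1 value per feature, which the authors did not name in the tables and which was read as FPKM from the notes and from the values. Rows with the same symbol were summed (4 chemokine genes had more than 1 row). Features with a mean of at least 1 FPKM over the 6 libraries (15438) were tested with limma 3.58.1 (R 4.3.3, with a variance trend) on log2(FPKM + 1), 3 libraries labelled d/d against 3 labelled f/f, with Benjamini-Hochberg adjustment over all of them. Folds are ratios of group mean FPKM, and log2 changes with the pseudocount of 1 understate the change of low genes. The fit was tested on simulated data.

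Coordinates come from GENCODE M21 (GRCm38), matched by gene identifier for 62 of the 63 genes. Whether the libraries stand for separate animals is not in the labels, and the p-values therefore cover only the spread among these libraries, which may be technical. No pair of libraries was identical. Of the 34 tested genes 33 are named, and 1 chemokine receptor and 1 signalling gene are counted but not reported by name here. Also named are those under the filter that reach 0.5 FPKM in a library. From the lists of related genes the other examples are those with the largest log2 change past the threshold, with Myd88, Il6 and Il17a added. The genes, lists and markers were chosen with earlier results of these data known, and the TATAAA search was added after the sequences were seen. Alternatives were quantile normalization, TMM scaling, a pseudocount of 0.1, no filter, a replicate block, no variance trend and leaving out libraries. Genes whose exons overlap another gene cannot be told apart from it where strand was not used.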

Additional observations from a re-analysis of the deposited data

How the results depend on the processing

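Of 104 results of the 8 called genes (8 genes under 13 alternatives), 85 kept direction and call, 19 kept the direction and lost the call, and 0 changed direction. Ccl8, Cxcl16 and Cxcl17 kept the call under all 13 alternatives. The number of chemokine genes that rose was 7, against 12 with quantile normalization, and 4 to 9 when 1 library was left out. The number that fell was 1, and 0 to 1 when 1 library was left out. All features called numbered 1701, against 1107 with no filter and 169 to 1780 when 1 library was left out. Replicate numbers did not pair the libraries (correlations of deviations -0.22, -0.0585 and 0.0027 for like numbers). Unlike numbers reached values as large, from -0.276 (d/d replicate 2 with f/f replicate 3) to 0.282 (d/d replicate 2 with f/f replicate 1). With the replicate block 5 chemokine genes rose (Ccl7, Ccl8, Cxcl10, Cxcl16 and Cxcl17), 0 fell, and 276 features were called, where a block uses up residual degrees of freedom. The limma adjusted p of Cxcl10 was 0.0427 with the replicate block, the lowest in a range of 0.0427 to 0.170 over its alternatives. Leaving out both replicates 1, the lowest in Hoxa10, gave 7 that rose and 1 that fell. Direction changed only in 5 genes that were not called. Without both replicates 1 the log2 change was 0.0754 for Ackr4, -0.0310 for Ccl25, -0.23 for Cxcl1 and -0.13 for Cxcr3. Leaving out libraries gave log2 changes from -0.50 to 0.0754 for Ackr4, from -0.0331 to 0.22 for Ccl25, from -0.46 to 0.11 for Ccl6, from -0.23 to 0.53 for Cxcl1 and from -0.13 to 0.10 for Cxcr3. The causes were not tested. With 3 libraries a group, the smallest exact two-sided permutation p for a single gene is 0.1.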
